A study of Mus musculus with 12 samples.

Results

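The response of the mouse heart to transverse aortic constriction (TAC), averaged over a control diet and one free of branched-chain amino acids (BCAA), was taken from 12 of the 12 heart libraries of the series. TAC is surgery that narrows the aorta and so raises the pressure against which the left ventricle pumps. The averaged effect is the mean log2 level of both TAC groups minus that of both sham-operated groups, in a model of 4 group means, so each diet has the same weight. All animals were male C57Bl/6J mice, aged 12 weeks, and the tissue was heart, with no chamber named in the labels. There were 3 libraries of sham and 3 of TAC hearts on each diet, in 4 groups. The control diet held all essential amino acids, the BCAA-free diet held no leucine, isoleucine or valine, and either diet began 4 days before surgery and went on until the hearts were taken 1 week after it. The labels name no engineered allele in any group. The labels do not say whether the 3 libraries of a group came from 3 animals, so the p-values measure the spread between these libraries, which may be technical. The question put here is which changes with TAC had the same sign and a similar size on both diets.

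Pressure overload stretches cardiac muscle cells, which grow in width and turn on a set of genes typical of the fetal heart, among them natriuretic peptides, skeletal alpha-actin and the slow beta myosin heavy chain. Fibroblasts between the muscle cells lay down collagen and other matrix, and immune cells are drawn in by chemokines. Genes of calcium cycling, of repolarizing ion channels and of fat oxidation are known to lose expression in the overloaded heart.

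Values are normalized reads: read counts divided by a size factor per library, which the authors set separately for the control diet libraries and for the BCAA-free libraries in the tables used. TAC and sham are therefore compared within a diet before the average is taken, and levels of a gene on one diet are not set against those on the other. Library depth ran from 74206246 to 110452636 reads. The structured RNAs Rn7sk, Rmrp and Rpph1, which have no poly(A) tail, were high in 4 libraries and came to 2.06 to 7.79 CPM, a unit scaled by library total, in the other 8. The 4 were replicate 2 of the sham hearts (115.5 CPM) and replicate 3 of the TAC hearts (19.3 CPM) on the control diet, and replicates 1 and 3 of the TAC hearts (63.6 and 76.1 CPM) on the BCAA-free diet. Mitochondrial transcripts took 17.9% to 19.9% of reads in control diet TAC libraries and 21.8% to 27.1% in the other 9. The part of these differences in the results was not tested. Counts without the 4 libraries that were high in structured RNAs are given where they move a result. That setting leaves replicate 2 alone in the BCAA-free TAC group, so it cannot separate structured RNA content from the loss of libraries. In whole tissue, fewer cells of a type and less RNA per cell cannot be told apart.

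Of 17493 genes measured on both diets, 2326 rose with TAC in the average (13.3%) and 2199 fell (12.6%) at an adjusted p below 0.05 (limma, Benjamini-Hochberg over all genes). Together these are 4525 genes, or 25.9%. Leaving out each library in turn gave 1893 to 2835 genes higher and 1700 to 2984 lower. The median change over all genes was -0.0058 on the log2 scale in the average, -0.024 on the control diet and 0.0060 on the BCAA-free diet. The log2 scale is that of normalized reads plus 1, which understates changes of genes with few reads. Of the 4525 genes, 4415 (97.6%) had the same sign on both diets, against 69.2% of all genes measured. The rule that picks calls from the average favours genes of equal sign, so that share is a description only. The other 110 had opposite signs, and 67 of those were higher on average.

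A change was counted as of similar size where its sign was the same on both diets and the smaller log2 change was at least 0.66667 of the larger. That held for 1173 of the 4525 called genes (25.9%), of which 479 rose (2.74% of all genes measured) and 694 fell (3.97%). The ratio was 0.66680 for the called gene just inside that limit of 0.66667 and 0.66666 for the one just outside. The change was larger on the control diet for 3048 called genes with equal sign and larger on the BCAA-free diet for 194. The median ratio of the BCAA-free change to the control diet change was 0.434 over called genes that rose and 0.561 over those that fell. Similar size is a description and not a test of equality: for 687 of the 1173 genes (58.6%) the 95% interval of the difference between diets lay within a log2 of 0.5 of zero on either side. In 5 of the 1173 the interval left out 0.

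**Figure D1:**
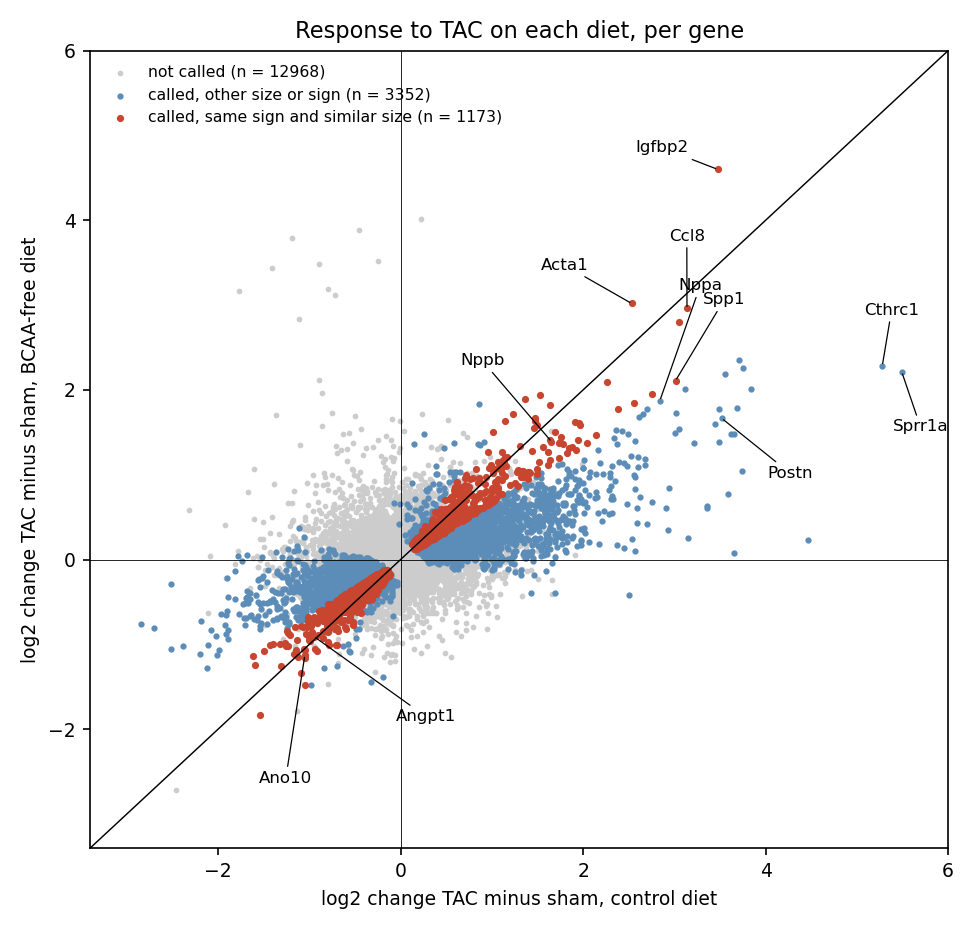
Each point is 1 of 17493 genes, with its log2 change from sham to TAC on the control diet on the x axis and on the BCAA-free diet on the y axis; the diagonal marks equal change. The 1173 called genes of the same sign and similar size lie along the diagonal, while 3048 called genes lie nearer the x axis.

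Genes of similar size that rose were changed by more than those that fell. Their median averaged change was 0.50 for the 479 that rose and -0.32 for the 694 that fell, and changes of at least 2-fold were found in 80 and 24 of them. The same held over all called genes, with medians of 0.50 and -0.34 and changes of at least 2-fold in 341 and 82. Only called genes enter these medians, and the part of read level in the gap was not tested. The libraries of TAC and sham did not overlap on either diet for 296 of the 479 and 480 of the 694. Over all genes that pattern held for 1115 with TAC higher (6.37%) and 1308 with TAC lower (7.48%). Calls made on these same libraries favour that pattern, so these shares are a description only. Among all called genes it held for 45.7% of those that rose and 56.2% of those that fell. At similar size the shares were 61.8% and 69.2%. The genes that fell had higher levels and longer gene spans than the genes that rose, as was so over all called genes. The rule did not use gene span. The median of the mean normalized reads was 2269 in the 694 genes and 429.5 in the 479, against 787.6 over all genes. Median gene span was 57.1 kb in those that fell and 13.4 kb in those that rose, against 18.8 kb in all genes. Over all called genes the medians were 2174 reads and 42.2 kb for those that fell, and 603.1 reads and 17.0 kb for those that rose. Read numbers depend on transcript length as well as on abundance, so these levels do not rank genes by expression.

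Of 15 hypertrophic marker genes, 12 rose and 0 fell, against 13.3% of all genes that rose, with a median averaged change of 0.94 (1.39 on the control diet and 0.55 on the BCAA-free diet). Acta1, Nppb, Ankrd1, Mybpc2 and Myh7 rose at similar size on both diets. The other 7 that rose were Nppa, Uchl1, Fhl1, Xirp2, Enah, Rcan1 and Csrp3, and Fhl2, Hamp and Xirp1 did not pass the test.

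To place the 5 in the genome, the 250 bases before the RefSeq start of 4 of them are printed because they carry a short sequence in common. Capitals mark the MCAT element, CATTCC or its other strand GGAATG, a sequence that TEAD factors are known to bind, and in Acta1 also a CArG box, which serum response factor is known to bind. Sequences are from RefSeq on GRCm38.p6 and run 5′ to 3′ on the strand of the gene.
Acta1, chr8:123894776-123895025 (minus strand): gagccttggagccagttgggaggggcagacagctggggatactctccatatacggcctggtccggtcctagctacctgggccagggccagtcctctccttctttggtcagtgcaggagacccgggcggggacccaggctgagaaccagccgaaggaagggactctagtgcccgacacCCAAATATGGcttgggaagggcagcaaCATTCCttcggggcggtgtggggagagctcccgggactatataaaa
Nppb, chr4:147985650-147985899 (plus strand): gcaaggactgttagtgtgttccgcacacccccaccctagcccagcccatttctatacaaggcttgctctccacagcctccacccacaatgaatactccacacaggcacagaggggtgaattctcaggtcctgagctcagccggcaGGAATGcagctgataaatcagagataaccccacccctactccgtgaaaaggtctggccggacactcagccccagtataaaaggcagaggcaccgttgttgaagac
Ankrd1, chr19:36119845-36120094 (minus strand): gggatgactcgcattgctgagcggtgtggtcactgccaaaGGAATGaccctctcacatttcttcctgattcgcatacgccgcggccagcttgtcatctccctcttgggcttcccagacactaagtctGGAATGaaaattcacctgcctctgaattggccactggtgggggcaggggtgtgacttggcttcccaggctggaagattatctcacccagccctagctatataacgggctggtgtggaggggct
Mybpc2, chr7:44524670-44524919 (minus strand): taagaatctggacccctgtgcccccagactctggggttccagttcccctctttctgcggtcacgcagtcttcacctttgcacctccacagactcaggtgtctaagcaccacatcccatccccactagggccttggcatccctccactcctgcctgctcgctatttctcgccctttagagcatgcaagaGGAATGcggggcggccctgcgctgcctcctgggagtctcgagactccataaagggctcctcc
In Acta1 the MCAT element starts 46 bases before the RefSeq start of transcription and the CArG box 73 bases before it. The Nppb element starts 105 bases before, the Ankrd1 elements 210 and 123, and the Mybpc2 element 62. The gene positions given with the values come from another annotation (GENCODE), in which Nppb and Ankrd1 start farther upstream, so that their elements lie inside those gene spans and are upstream only of the RefSeq start. One of 2 windows of Myh7 held the element, 201 bases before its start. In the windows of Nppa, Tpm2, Cnn1, Igfbp2, Ccl8 and Spp1, these letters were not found. Either strand was searched, and the element was in 12.6% of 32851 windows of the RefSeq table and in 11.2% of windows of genes tested. For rising genes of similar size the share was 16.5% of 437 windows, and for falling ones 9.67% of 641. CArG boxes were in 1.83% and 0.624% of the same windows, against 1.20% of those of genes tested. A match is a description of letters and not a bound site. In the windows printed, the motifs do not overlap.

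Acta1 (chromosome 8, 123891769 to 123894751, GRCm38), which encodes skeletal alpha-actin, had 22661, 26434 and 25192 normalized reads in control diet sham hearts and 72745, 215902 and 186425 in control diet TAC hearts. On the BCAA-free diet it had 7930, 7210 and 5592 in sham and 77004, 36823 and 60137 in TAC hearts. TAC libraries were above all sham libraries on each diet, and control diet TAC 1 lay far below the other TAC hearts of its diet. The averaged log2 change was 2.78 ± 0.27 (SE, n = 6 TAC and 6 sham libraries, limma adjusted p = 6.95e-05), made of 2.53 on the control diet and 3.02 on the BCAA-free diet. The BCAA-free change minus the control diet change was 0.49, with a 95% interval from -0.71 to 1.69, which leaves room for a larger response on either diet.

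Nppb (chromosome 4, 147985788 to 147987205), which encodes B-type natriuretic peptide, had 19734, 21010 and 18813 reads in control diet sham hearts and 48018, 66093 and 76485 in TAC hearts. With the BCAA-free diet the values were 18829, 14198 and 14177 in sham and 60463, 29673 and 38119 in TAC hearts. All 6 TAC libraries were above the sham libraries of their diet, and BCAA-free TAC 1 was the highest of its group. In the average Nppb rose by 1.52 ± 0.161 (limma adjusted p = 4.62e-05), with 1.65 on the control diet and 1.39 on the BCAA-free diet, a difference of -0.26 (95% interval -0.96 to 0.44).

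Ankrd1 (chromosome 19, 36111961 to 36120099) encodes a protein of the titin spring region that responds to stretch. Its sham hearts held 92124, 164766 and 147214 reads on the control diet and 119626, 86743 and 101194 on the BCAA-free diet. Its TAC hearts held 306006, 455840 and 458519 reads, and 277961, 215707 and 243183, in the same order. The groups did not overlap on either diet, and the lowest TAC library stood well clear of the highest sham library. In the average it rose by 1.44 ± 0.15 (limma adjusted p = 3.12e-05), with 1.61 and 1.27 on the control and BCAA-free diets.

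Mybpc2 (chromosome 7, 44501699 to 44524656) encodes the fast skeletal form of myosin-binding protein C. It went from 2210, 2545 and 2781 reads in control diet sham hearts to 6739, 8211 and 6335 in TAC hearts, and from 1954, 1639 and 1774 to 4414, 2960 and 3966 on the BCAA-free diet. Its averaged change of 1.28 ± 0.1 had a limma adjusted p of 2.46e-06, and the change on the BCAA-free diet was 1.06, the smaller of the pair. It is 1 of the 5 genes of similar size whose 95% interval of the difference left out 0.

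Myh7 (chromosome 14, 54970684 to 54994626), the beta myosin heavy chain, was the least even of the 5. Control diet sham hearts held 35013, 56688 and 46088 reads and TAC hearts 111774, 210138 and 69508, while BCAA-free sham hearts held 37282, 35572 and 37682 and TAC hearts 121518, 54190 and 58901. One TAC library on the control diet and another on the BCAA-free diet stood far above the rest of their groups. The averaged change was 1.19 ± 0.279 (limma adjusted p = 0.0109), and the difference between diets, -0.40, had a 95% interval from -1.64 to 0.84. Myh6, the alpha myosin heavy chain that lies next to it and is close to it in sequence, fell by 0.26 (limma adjusted p = 0.0344), with -0.48 and -0.05 on the control and BCAA-free diets. Its call was lost without the 4 libraries high in structured RNAs and under several other settings, with adjusted p up to 0.176, and reads may be shared between both myosin genes.

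Nppa (chromosome 4, 148000722 to 148002079), which encodes atrial natriuretic peptide and neighbours Nppb, rose on both diets with less even size. It went from 27328, 40358 and 15325 reads to 222844, 206450 and 135518 on the control diet, and from 22352, 17084 and 14474 to 83839, 49654 and 65546 on the BCAA-free diet. The mean change over diets was 2.36 ± 0.24 (limma adjusted p = 8.05e-05), with 2.84 and 1.88. The difference of -0.97 had a 95% interval from -2.03 to 0.10 and did not pass the test (limma adjusted p = 0.389), so Nppa is outside the similar size limit without being shown to differ.

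**Figure D2:**
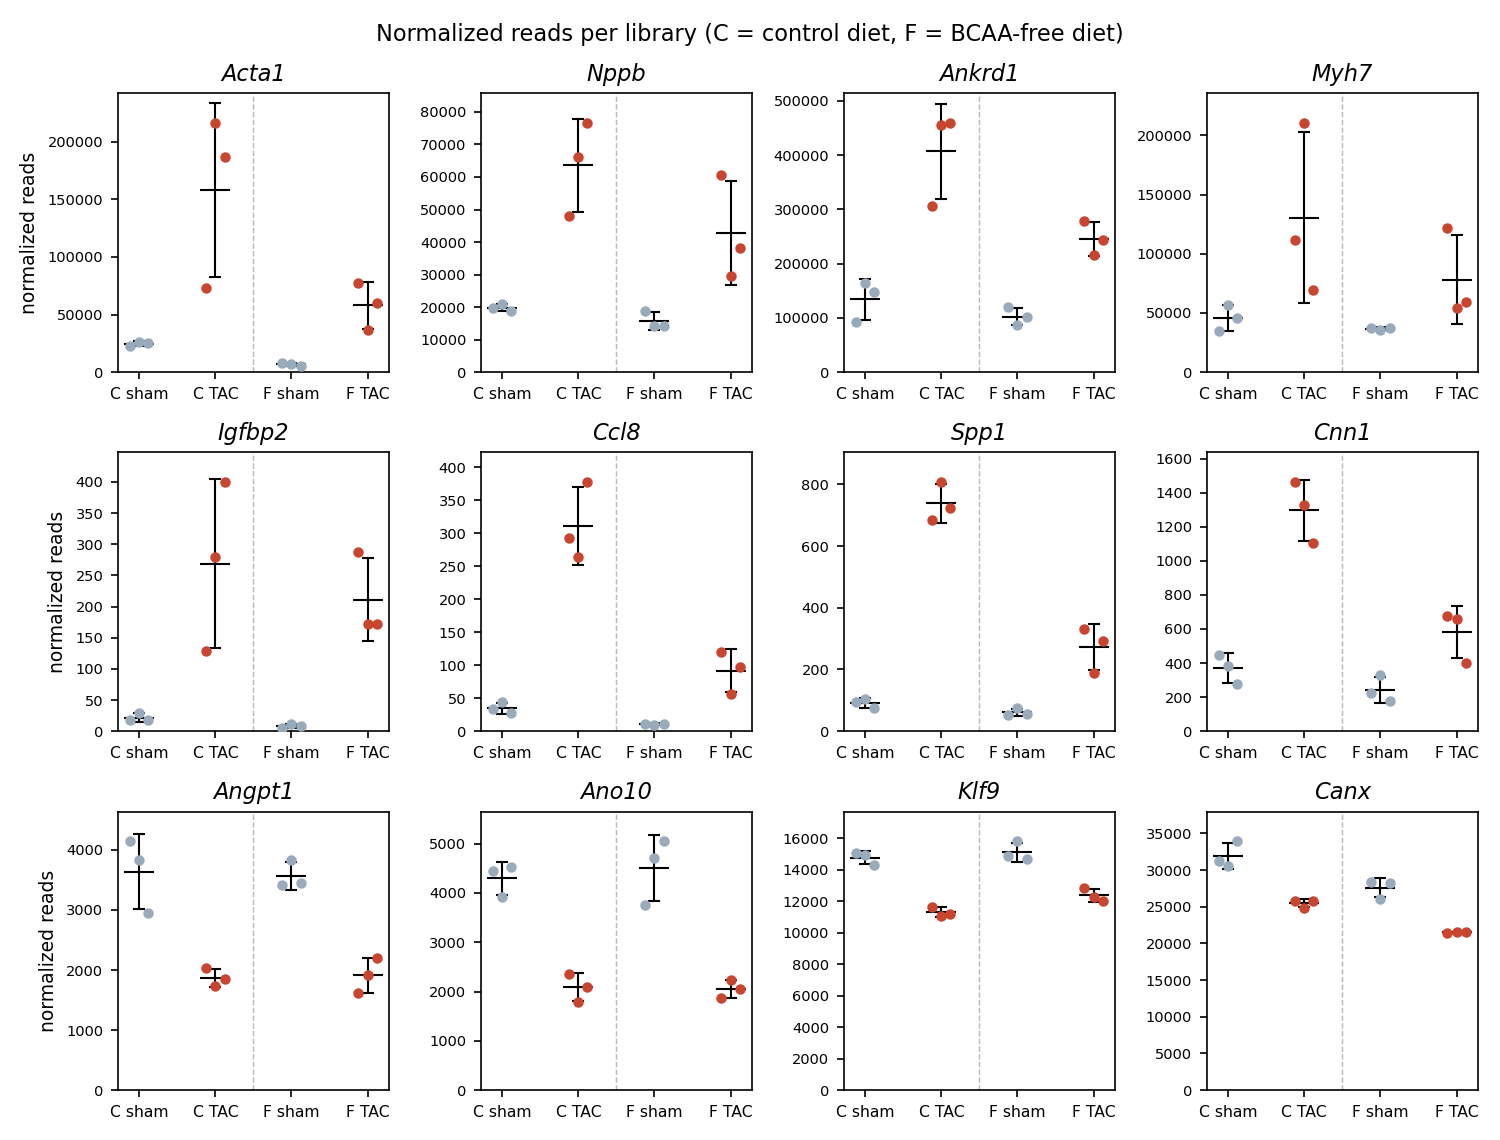
Normalized reads of 12 genes in each of the 12 libraries (points), with the mean and SD of each group of 3 (bars), C for control diet and F for BCAA-free diet. Acta1, Nppb, Ankrd1, Myh7, Igfbp2, Ccl8, Spp1 and Cnn1 are higher, and Angpt1, Ano10, Klf9 and Canx lower, in all TAC libraries of a diet than in its sham libraries; Myh7 spreads widely in both TAC groups.

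Among 21 sarcomere genes, 8 rose and 2 fell, against 13.3% and 12.6% of all genes. Their medians were -0.03 on the control diet and 0.25 on the BCAA-free diet. Tpm2 (beta tropomyosin), Tnnc1 (cardiac troponin C) and Acta2 (smooth muscle actin) rose at similar size. Tpm2 rose by 0.77 ± 0.0677 (limma adjusted p = 6.4e-06; 0.83 on the control diet and 0.71 on the BCAA-free diet), and Tnnc1 by 0.52 ± 0.107 (0.44 and 0.60). Actc1, the cardiac alpha-actin, rose by 0.38, with the larger part on the BCAA-free diet (0.23 and 0.54). Without the 4 libraries high in structured RNAs, 4 sarcomere genes were higher and 0 lower. Of 28 cytoskeleton genes 20 rose and 1 fell, against 13.3% and 12.6% of all genes. Actg1 (0.43 and 0.44) and Flna (0.34 and 0.31) rose at nearly the same size on both diets. Krt18, a keratin, had 3.36 on the control diet and 0.61 on the BCAA-free diet.

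Of 12 smooth muscle and pericyte markers 6 rose and 2 fell, against 13.3% and 12.6% of all genes. Similar size held for 4 of those that rose. Cnn1 (chromosome 9, 22099216 to 22109630), which encodes the actin-binding protein calponin 1, had 449.1, 381.9 and 277.8 reads in control diet sham hearts and 1460, 1326 and 1102 in TAC hearts. BCAA-free sham hearts had 222.0, 326.9 and 178.7 and TAC hearts 677.0, 660.5 and 402.9. Its averaged change was 1.54 ± 0.174 (limma adjusted p = 4.7e-05), with 1.83 and 1.26 on the control and BCAA-free diets. Cnn1, Tagln (0.84 and 0.74), Acta2 (0.48 and 0.55) and Cspg4 (0.42 and 0.39) rose at similar size, whereas Myh11, which defines mature smooth muscle, Lmod1, Pdgfrb and Rgs5 did not pass the test. Des (0.86 and 0.41) and Mcam (0.58 and 0.35) rose with the larger change on the control diet. Abcc9 (-1.06 and -0.61) and Kcnj8 (-0.43 and -0.03), which encode potassium channel subunits, fell outside the similar size limit. The cell type behind the changes of this list was not tested.

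Secreted factors were among the largest changes of similar size. Igfbp2 (chromosome 1, 72824503 to 72852474) encodes a carrier of insulin-like growth factors. Its reads were 17.4, 29.6 and 17.9 in control diet sham hearts and 128.4, 279.2 and 399.4 in TAC hearts. With the BCAA-free diet they were 4.57, 11.2 and 7.97 in sham and 287.6, 172.8 and 172.7 in TAC hearts. TAC hearts were above sham hearts on either diet, although the sham values rest on few reads. The averaged change was 4.04 ± 0.286 (limma adjusted p = 1.62e-06), the largest rise among the named genes, with 3.47 and 4.60 on the control and BCAA-free diets and a difference of 1.13 (95% interval -0.10 to 2.35). Of 33 growth factor and cardiokine genes 14 rose and 7 fell, against 13.3% and 12.6% of all genes. Edn3 (1.56 and 1.33), an endothelin, and Lif (1.42 and 1.02), a cytokine of the interleukin 6 family, rose at similar size, while Igf1 (1.38 and 0.43) rose with the larger change on the control diet. Fgf6, a fibroblast growth factor of skeletal muscle, rose by 1.73 ± 0.316 (1.63 and 1.82), but its adjusted p was 0.0707 without the 4 libraries high in structured RNAs.

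Ccl8 (chromosome 11, 82115185 to 82116799), a chemokine that attracts monocytes, had 33.6, 43.7 and 26.8 reads in control diet sham hearts and 293.3, 263.6 and 377.0 in TAC hearts. On the BCAA-free diet it had 10.96, 8.79 and 11.4 in sham and 120.7, 56.2 and 97.4 in TAC hearts. Every TAC library was above the sham libraries of its diet. The averaged change was 3.05 ± 0.203 (limma adjusted p = 9.18e-07), and the changes on the control and BCAA-free diets were 3.14 and 2.96, a difference of -0.18 (95% interval -1.05 to 0.69). Spp1 (chromosome 5, 104435118 to 104441050), which encodes osteopontin, a matrix protein and cytokine of macrophages and other cells, had 93.3, 105.2 and 75.0 reads in control diet sham and 684.2, 806.5 and 724.2 in TAC hearts, and 53.9, 73.5 and 55.8 in BCAA-free sham and 332.7, 189.2 and 293.4 in TAC hearts. Spp1 rose by 2.56 ± 0.15 (limma adjusted p = 6.51e-07), with 3.01 and 2.11. The interval of its difference, -1.55 to -0.26, left out 0, though the adjusted p of that difference was 0.167.

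Of 23 inflammation and chemokine genes 15 rose and 1 fell, against 13.3% and 12.6% of all genes. Their medians were 0.78 and 0.30 on the control and BCAA-free diets. Ccl8, Spp1, Ccl12 (1.02 and 1.51), another monocyte chemokine, and Tlr2 (0.71 and 0.48), a receptor of innate immunity, were the members of similar size. Ccr2, the receptor of monocyte chemokines, rose by 1.44 (1.82 and 1.07). Without the 4 libraries high in structured RNAs 7 were higher and 2 lower. Beside them, 8 of 11 macrophage markers rose, against 13.3% of all genes. Among the 8 were Fcgr1 (1.25 and 0.58), C1qa (0.84 and 0.49) and Cd68 (0.96 and 0.51). Lyve1, Timd4 and Cd163, which mark resident macrophages, did not pass the test. The summed macrophage markers ran from 19512 to 25413 normalized reads in control diet sham and from 36073 to 37701 in control diet TAC hearts. In BCAA-free hearts they ran from 16480 to 18444 in sham and from 18126 to 23703 in TAC, so the ranges overlapped on that diet. Among 4 neutrophil markers Csf3r alone rose (0.70 and 0.96), and of 6 lymphocyte markers 0 passed the limma test, 0 had an unadjusted p below 0.05, and edgeR and DESeq2 called 0. The part of these markers in the chemokine changes was not tested.

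Several fat cell genes moved with TAC at similar size, and they rest on uneven libraries. Ucp1, the uncoupling protein of brown fat, was 3.06 and 2.80 higher on the control and BCAA-free diets, and Cfd (adipsin) and Cidec, a lipid droplet protein, rose by 1.60 and 1.33 in the average. Ucp1 had 4.34, 4.73 and 5.36 reads in control diet sham and 57.7, 10.1 and 171.7 in TAC hearts, and 10.96, 1.60 and 2.28 in BCAA-free sham and 57.7, 4.09 and 115.1 in TAC hearts. Control diet TAC 3 and BCAA-free TAC 3 were the highest, and BCAA-free TAC 2 lay within the range of its sham hearts. Of 9 adipocyte markers 5 rose and 1 fell, but without the 4 libraries high in structured RNAs 0 rose and 1 fell, and Cfd then had an adjusted p of 0.167. With all libraries Plin1, Retn and Car3 did not pass the test, and 13.3% of all genes rose and 12.6% fell. The part of adherent fat in these values was not tested.

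The largest falls of similar size were in genes of varied function. Ano10 (chromosome 9, 122175874 to 122294423), an anoctamin family membrane protein, had 4439, 3918 and 4530 reads in control diet sham hearts and 2366, 1797 and 2086 in TAC hearts. On the BCAA-free diet it had 3764, 4716 and 5047 in sham and 1868, 2234 and 2046 in TAC hearts. Its TAC libraries lay below its sham libraries by a wide gap on each diet. It fell by 1.09 in the average (SE 0.0863, limma adjusted p = 2.71e-06), with -1.05 and -1.13, and the difference of -0.08 had a 95% interval from -0.45 to 0.29, among the narrowest of the genes plotted with it.

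Angpt1 (chromosome 15, 42424723 to 42676977) encodes angiopoietin 1, the ligand that stabilizes vessels through the endothelial receptor Tek. Sham hearts had 4142, 3831 and 2947 reads on the control diet and 3421, 3829 and 3444 on the BCAA-free diet, and TAC hearts 2026, 1731 and 1854, and 1614, 1922 and 2194. TAC libraries were below sham libraries on both diets without overlap. The averaged change was -0.93 ± 0.0916 (limma adjusted p = 1.59e-05), with -0.95 and -0.91 on the control and BCAA-free diets and a difference of 0.04 (95% interval -0.35 to 0.43). Nrg1, the neuregulin that signals from endothelium to muscle, fell by 0.86 (-0.71 and -1.01) on few reads and with overlap on the control diet. Of 12 endothelial markers 0 passed the limma test, 2 had an unadjusted p below 0.05 with lower values, and edgeR and DESeq2 called 0. Pecam1 was at 0.07 and Tek, the receptor of Angpt1, did not pass the test either.

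Other large falls of similar size were those of Cenpf (-1.05 and -1.48), a kinetochore protein, Stum (-1.40 and -0.99), Abca4, a retinoid transporter of the ABC family, Zfp871, Cfap61, Adcy8 (adenylyl cyclase 8), Shisa6, Lmbrd2 and Tbc1d10c. Cenpf had a limma adjusted p of 0.000363. Its fall went against the cell cycle genes, of which 21 of 30 rose and 0 fell. A feature named Crybg3 also fell by 1.29 at similar size, but 2 identifiers share that name and the one called had no position in the annotation used here. On the rising side, Lman1l (2.56 and 1.84), Sypl2 (1.78 and 1.37), which encodes mitsugumin 29 of muscle triads, Nlrc3 (1.92 and 1.29) and Tceal7 (1.36 and 1.89) completed the largest rises of similar size.

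**Figure D3:**
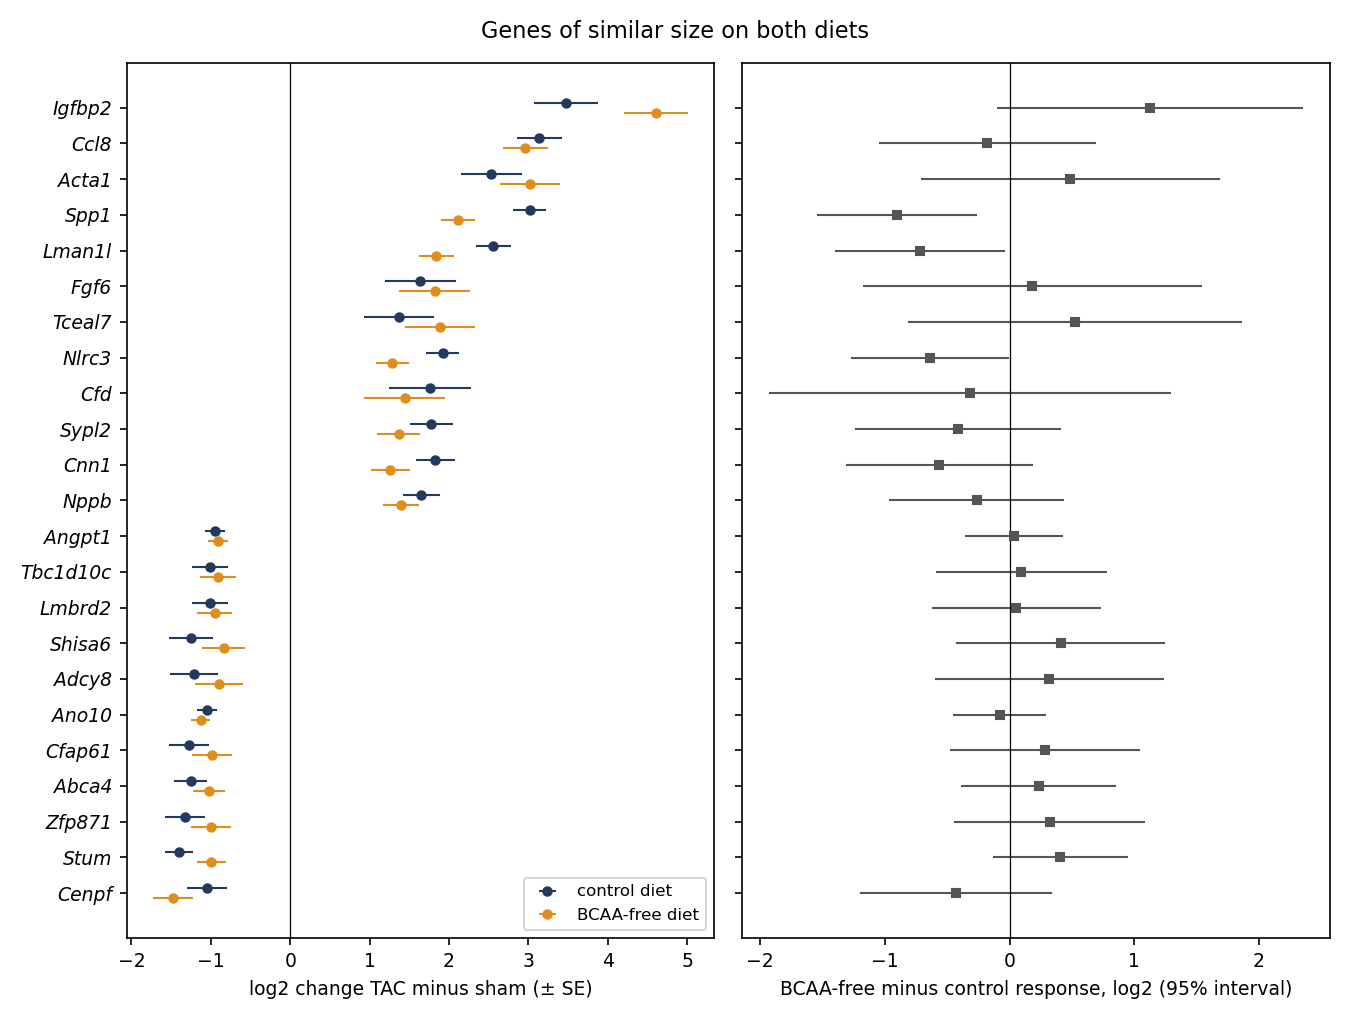
Left, log2 change from sham to TAC with its SE on the control diet and on the BCAA-free diet for the 12 largest rises and 11 positioned falls of similar size; right, the difference between the changes with its 95% interval. Intervals are narrow for Angpt1 and Ano10 and wide for Cfd and Fgf6, and those of Spp1, Lman1l and Nlrc3 leave out 0.

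Of 31 transcription factors of muscle growth and metabolism 8 fell, 4 rose and 19 did not pass the test. The 4 that rose are near the 13.3% of all genes that rose, and 12.6% of all genes fell. Klf9, Mef2a, Klf15 and Thra fell at similar size. Klf9 (chromosome 19, 23141226 to 23168134), a Kruppel-like factor that responds to glucocorticoid and thyroid hormone, had 15058, 14953 and 14277 reads in control diet sham and 11636, 11054 and 11211 in TAC hearts. BCAA-free sham hearts had 14840, 15800 and 14679, and TAC hearts 12842, 12244 and 12041. Each group was tight and no TAC library reached the sham range, so that a fall of 0.34 (SE 0.0475) passed the test (limma adjusted p = 0.000223). Mef2a, a muscle transcription factor, fell by 0.39 (-0.42 and -0.35), also without overlap. Klf15, a regulator of BCAA and fat breakdown, fell by 0.47 (-0.53 and -0.41), with overlap on the control diet, and Thra, the thyroid hormone receptor alpha, by 0.32 (-0.38 and -0.26). Rxrg (-0.57 and -0.10), a retinoid receptor, Myocd (-0.54 and -0.10), the smooth muscle coactivator, Tbx5 and Esrrg fell with the larger change on the control diet. The 4 that rose, Meox1, Runx1, Scx and Tcf21, are known from fibroblasts or other connective tissue cells and were larger on the control diet.

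Of 23 chaperone and unfolded protein response genes 5 fell and 3 rose, the latter near the share over all genes (12.6% fell and 13.3% rose). The medians had opposite signs, 0.07 on the control diet and -0.13 on the BCAA-free diet. Of the 23 genes 12 had the same sign on both diets. The 8 calls became 5 without BCAA-free TAC 1 and 11 without control diet TAC 3. Among those that fell, Canx, Hspa5 and Sel1l, which act in the endoplasmic reticulum, were of similar size. Canx (chromosome 11, 50293961 to 50325673), which encodes calnexin, had 31231, 30584 and 33911 reads in control diet sham and 25781, 24891 and 25815 in TAC hearts, and 28357, 26123 and 28289 in BCAA-free sham and 21435, 21525 and 21576 in TAC hearts. The groups did not overlap, and the fall of 0.34 (SE 0.0506, limma adjusted p = 0.000329) was -0.32 and -0.36 by diet. Hspa5, the chaperone BiP, fell by 0.32 (-0.27 and -0.37), with overlap on the control diet, and Sel1l, an adaptor of protein disposal, fell by 0.20 (-0.20 and -0.21). Hspb1, a cytosolic small heat shock protein, rose at similar size (0.40 and 0.44). In the response to amino acid shortage, which ATF4 drives, 10 of 24 genes rose and 1 fell, against 13.3% and 12.6% of all genes. The other 13 did not pass the test. Trib3, Chac1, Ddit4, Atf5, Sesn2, Ddit3 and Phgdh were among the 13. On the BCAA-free diet alone 2 of the 24 were called. Atf4 itself (0.29 and 0.32) and Asns (0.41 and 0.29), the asparagine synthetase, rose at similar size. Gdf15 (2.16 and 0.55), a stress cytokine, rose with the larger change on the control diet.

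Of 20 calcium handling genes 8 fell and 2 rose, against 12.6% and 13.3% of all genes, and 10 did not pass the test. The medians were -0.29 and -0.15 on the control and BCAA-free diets. The 2 that rose are no more than the share over all genes. They were Casq1 and Casq2, the skeletal and cardiac calsequestrins that store calcium, both at similar size (0.73 and 0.52 for Casq1, 0.19 and 0.20 for Casq2). Casq2 was near the limit of the test (limma adjusted p = 0.0457). Atp2a2, the calcium pump SERCA2, fell by 0.62 ± 0.0707 (limma adjusted p = 4.56e-05; -0.82 and -0.41), Ryr2, the calcium release channel, by 0.48 (-0.58 and -0.37), and Pln, which restrains the pump, by 0.41 (-0.65 and -0.17). In the list of 21 potassium and sodium channel genes 13 fell and 1 rose, against 12.6% and 13.3% of all genes. Kcnk3 (-0.39 and -0.28), a background potassium channel, fell at similar size. The most lowered, Kcnv2, a silent potassium channel subunit, fell by 1.46 ± 0.132 (limma adjusted p = 7.52e-06; -2.02 and -0.90). Without the 4 libraries high in structured RNAs, 9 channel genes were lower.

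Matrix genes rose most widely, but almost none at similar size. Of 19 collagens 18 rose and 0 fell, with medians of 1.81 on the control diet and 0.76 on the BCAA-free diet, and only Col18a1 of the basement membrane (1.32 and 0.97) was of similar size. Col3a1 rose by 1.94 ± 0.202 (2.36 and 1.53) and Col1a1 by 1.79 ± 0.218 (2.45 and 1.14), both chains of fibrillar collagen. Of 29 other matrix genes 27 rose and 0 were of similar size, with medians of 1.85 and 0.74. Postn (periostin) had 3.52 and 1.66, Tnc (tenascin C) 3.84 and 2.01, Lox, which crosslinks collagen, 3.66 and 1.48, and Cthrc1, a collagen triple helix protein of activated fibroblasts, 5.28 and 2.29. Among 19 proteases and inhibitors 12 rose, led by Timp1 (3.55 and 2.19), an inhibitor of metalloproteinases. In TGF-beta signalling 10 of 19 genes rose and 2 fell, against 13.3% and 12.6% of all genes. The ligands Tgfb2 (1.24 and 0.48) and Tgfb3 (1.23 and 0.52) were among those that rose. Smad3, the signal transducer, fell at similar size (-0.38 and -0.33). Fibroblast markers moved in both directions: 7 of 11 rose and 2 fell, against 13.3% and 12.6% of all genes. Pi16 (0.86 and 0.96) and Dpt (0.38 and 0.26) rose at similar size, Gsn and Scara5 fell, and Pdgfra, which defines the lineage, did not pass the test.

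**Figure D4:**
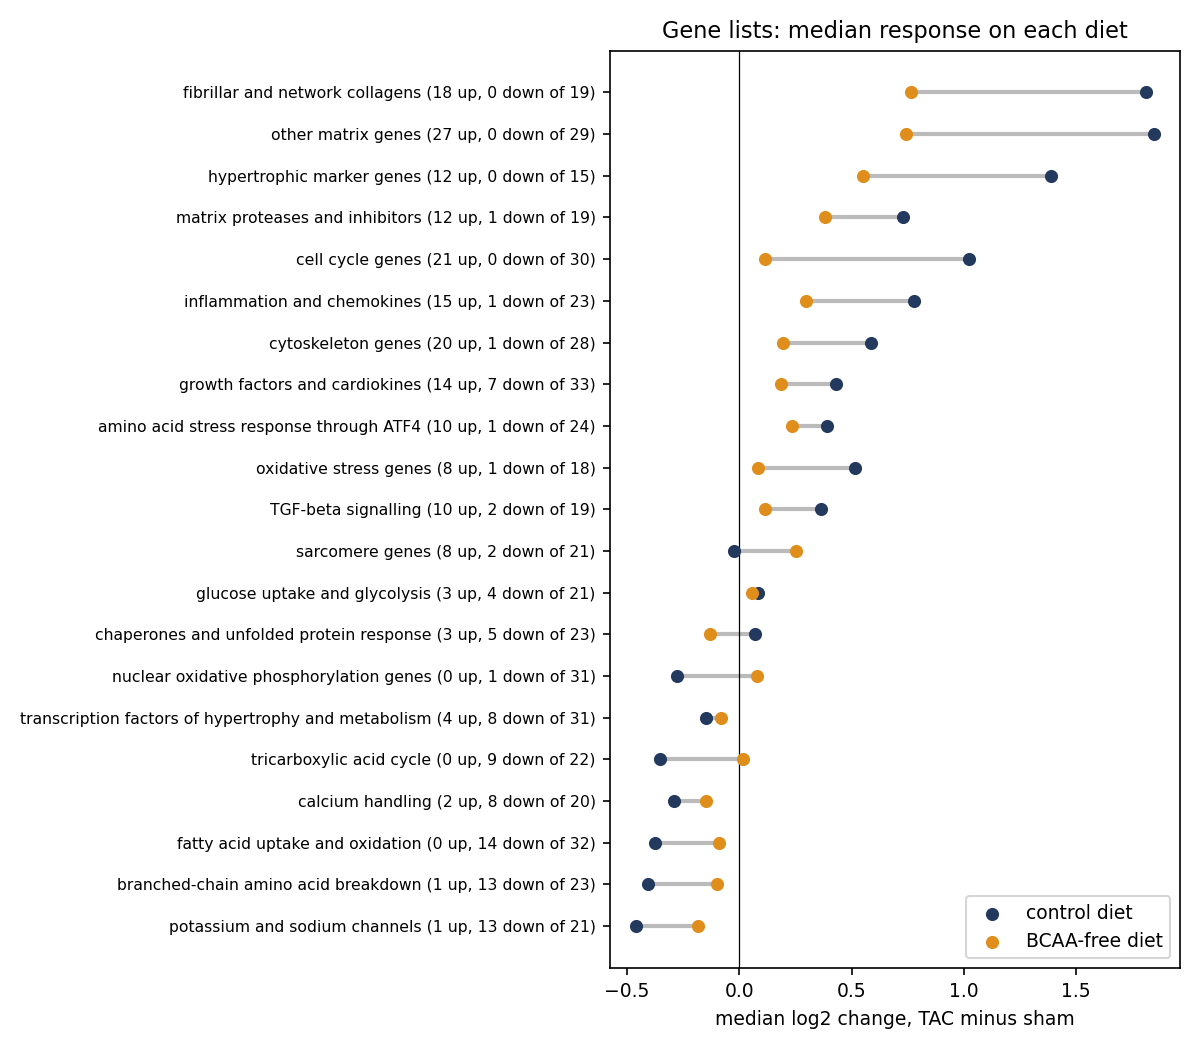
Median log2 change from sham to TAC of each gene list on the control diet and on the BCAA-free diet, with the numbers that rose and fell in the average of both diets. The medians of collagens and other matrix genes are above 0 on both diets and farther from 0 on the control diet. Those of sarcomere, chaperone, tricarboxylic acid cycle and oxidative phosphorylation genes have opposite signs on the 2 diets.

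Of 32 genes of fatty acid uptake and oxidation 14 fell and 0 rose, against 12.6% of all genes that fell, with medians of -0.38 and -0.09. Slc27a1, a fatty acid transporter (-0.36 and -0.33), was of similar size, and Hadha, a subunit of the trifunctional enzyme, fell by 0.40 (-0.63 and -0.16). Of 23 genes of BCAA breakdown 13 fell and 1 rose, with medians of -0.41 and -0.10, and 0 were of similar size. Bckdha, a subunit of the dehydrogenase that commits BCAA to breakdown, fell by 0.60 (-0.86 and -0.33). In the tricarboxylic acid cycle 9 of 22 genes fell, with Pcx, pyruvate carboxylase, at similar size (-0.35 and -0.30), and 1 of 31 nuclear oxidative phosphorylation genes, Ndufs1, fell. The medians of these lists were -0.35 on the control diet and 0.018 on the BCAA-free diet, and -0.28 and 0.078, so each had opposite signs on the diets. Control diet TAC 3 bears on all of these: without it 24 fatty acid genes, 22 BCAA breakdown genes, 19 tricarboxylic acid cycle genes and 19 oxidative phosphorylation genes were called. Of 21 glycolysis genes 3 rose and 4 fell, near the 13.3% and 12.6% of all genes. Pgam1 (0.32 and 0.33) and Pgk1 (0.17 and 0.17), both enzymes of lower glycolysis, rose and Pfkfb1 (-0.93 and -0.70), which sets a regulator of glycolysis, fell at similar size. Ppargc1a, the coactivator of mitochondrial genes, was at -0.31 and did not pass the test (limma adjusted p = 0.0992).

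The tissue label was checked against markers. Summed cardiomyocyte markers ran from 7675300 to 7879400 normalized reads in control diet sham and from 5535200 to 7014100 in control diet TAC hearts. Those ranges did not overlap. On the BCAA-free diet the sums ran from 6476300 to 7063500 in sham and from 7039100 to 7376400 in TAC hearts, with overlap. Of these 10 markers 1 rose and 3 fell, against 13.3% and 12.6% of all genes. Atrial markers (Myl7, Myl4, Sln, Dkk3 and Stard10) were uneven: their sum ran from 7429 to 34345 in control diet sham and from 19762 to 45021 in control diet TAC hearts, and from 8982 to 18583 in BCAA-free sham and from 24292 to 27993 in BCAA-free TAC hearts. Of these 5, 0 passed the limma test, 2 had an unadjusted p below 0.05 with higher values, and edgeR and DESeq2 called 0. Nppa and Nppb are also made in atria, and the part of atrial tissue in their rise was not tested. Of 5 skeletal muscle markers measured, Tnnt3 rose (2.76 and 0.68), and Ckm, Mylpf, Pvalb and Tnni2 did not pass the test. Epicardial and mesothelial markers had values above 0 on both diets in 8 of 8 genes, with medians of 1.05 and 1.02, and 2 of the 8 rose. These were Msln (1.46 and 1.55), at similar size but with overlap of TAC and sham libraries on each diet, and Krt8 (2.32 and 0.55), while Wt1, Upk3b, Upk1b, Muc16, Krt19 and Lrrn4 did not pass the test. Leaving out each library gave 1 to 6 calls, the 6 without control diet sham 1, and 1 was called without the 4 libraries high in structured RNAs. The summed markers ran from 685.7 to 1106 normalized reads in control diet sham and from 1182 to 1288 in control diet TAC hearts, and from 417.4 to 722.9 in BCAA-free sham and from 813.9 to 1024 in BCAA-free TAC hearts, with no overlap on either diet. The part of surface tissue in the results was not tested. Of 8 nerve and Schwann cell markers 2 rose and 1 fell, against 13.3% and 12.6% of all genes. Of 5 red blood cell genes 0 passed the limma test, with 1 lower at an unadjusted p below 0.05 and 0 called by edgeR or DESeq2. The 3 structured RNAs had medians of -0.46 on the control diet and 3.52 on the BCAA-free diet. Limma, edgeR and DESeq2 called 0 of them, and 0 had an unadjusted p below 0.05.

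Of the 4525 genes of the average, 285 were also called with the same sign within each diet alone. On the control diet alone 4436 genes were called (25.4%), 2324 higher (13.3%) and 2112 lower (12.1%). On the BCAA-free diet alone 309 were called (1.77%), 174 higher (0.995%) and 135 lower (0.772%). The 285 were 6.42% of the first and 92.2% of the second. Another 3408 were called on the control diet only, 22 on the BCAA-free diet only and 810 in neither diet alone. The count on the BCAA-free diet depended on single libraries: without BCAA-free TAC 1 it was 38, and without control diet TAC 3 it was 1011. A direct test of the difference between diets called 118 genes (0.675%). The BCAA-free log2 change minus the control diet log2 change was below 0 in 88 (0.503%) and above 0 in 30 (0.171%). That count of 118 ran from 16 to 1755 with 1 library left out, the highest without control diet TAC 3. Without the 4 libraries high in structured RNAs, 248 genes of similar size were higher and 444 lower, and 412 of the 1173 were among them.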

How the data were processed

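RNA was measured in 12 libraries of mouse heart after Trizol extraction and poly(A) selection, per the labels' protocols. Per the submitters' processing notes, the tools were DESeq2, Subread 1.5.2, STAR 2.5.2b and Trimmomatic 0.36, and the builds mm10 and GRCm38. What each tool did, the gene models and the use of strand in counting are not given in the sources, so overlapping, antisense and near-identical genes may share reads. Of 4 tables the authors deposited, 2 were used. Per the file headers, a table holds normalized read counts (the unit signal) by library, then the authors' own log2 fold change and p-values. The deposited signal is the read number over a size factor per library and table: 431838 of 431838 values (100%) were whole reads at a tolerance of 0.0001 read, and 0 of 212169 reads compared between tables were unequal. The authors' fold changes and p-values were not used.

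TAC and sham columns of each diet were taken from the table that holds both, over the 17493 genes in both tables. A minimum mean of 10 removed none. Log2(value + 1) was fitted with limma 3.58.1 (R 4.3.3), limma-trend with robust empirical Bayes and 4 group means, with Benjamini-Hochberg adjustment over all genes and calls below 0.05. The design foresaw edgeR for raw counts; edgeR 4.0.16 and DESeq2 1.42.0 on the recovered reads were alternatives. Depth ran from 74206246 to 110452636 reads, and the spread between libraries includes counting error. In simulated reads (17461 genes) 200 genes were given the same change on both diets, and no difference between diets was put in. The changed genes were not drawn from those with few reads. There the averaged contrast found 99% of the changes of 1 and 69% of those of 0.5 (log2). Of its calls 9.68% were on unchanged genes, above the share of 0.05 set for calls.

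The contrast, the gene lists and the rule for named genes were chosen with earlier results of these data known. The rule took the 10 largest rises and falls, and the 12 largest of each among genes of similar size. These picks were limited to called genes whose mean was 50 or more and whose TAC and sham libraries were apart on both diets. Without those limits on mean and overlap, it added the 3 called genes of smallest p per list with at least 3 called. It also added 22 set genes, called or not, and for the difference between diets the 5 called genes of smallest p each way. That made 109 in all. It passed over ribosomal pseudogenes, clones, Rik and predicted genes. Other genes named are list members chosen after their values were seen. Some of the genes the rule gives are not reported here. Positions are those of the GENCODE M21 annotation of GRCm38, found for 17444 genes.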

Additional observations from a re-analysis of the deposited data

Results flagged for a closer look

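For 26 of the genes named or listed, the response to TAC differed between diets in a direct test (limma, adjusted p below 0.05 over all genes). Some of them were named for the small p of this same difference, so their number is no result. Values are the BCAA-free log2 change minus the control diet log2 change. They rest on single libraries to differing degrees, so the number of the 12 fits with 1 library left out that still called the difference is given where it was 12 or 11. The cause of these differences was not tested.

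All 12 fits called 9 of the 26. The difference was -2.75 for Krt18, a keratin, -2.58 for Serpinb1a, a protease inhibitor, -2.18 for Lox, -1.46 for Star, a cholesterol carrier of mitochondria, -1.32 for Clu (clusterin), -1.27 for Uchl1, a deubiquitinase, and -0.98 for Tspo, a protein of the outer mitochondrial membrane. It was 1.29 for the chemokine Cxcl14 and 1.74 for mt-Tf, the mitochondrial phenylalanine tRNA. For Cthrc1 the difference of -2.99 was called in 11 of 12 fits.

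The other 16 were called in 8 of these fits or fewer. Among matrix genes and their proteases the differences were -1.85 for Col12a1, -1.39 for Col8a1, -1.31 for Col16a1, -1.21 for Mfap5, -0.86 for Mmp23 and -0.82 for Serpine2. For stress and muscle genes they were -3.28 for Sprr1a, a cornified envelope protein, -1.38 for Mt2 (metallothionein 2), -1.02 for Gpx3, an extracellular glutathione peroxidase, and -0.92 for Fhl1. The replication helicase subunits Mcm5 and Mcm6 had -1.12 and -0.76. Values above 0 were found for Bckdha (0.53), Ogdhl (0.86), a relative of oxoglutarate dehydrogenase, Cdkn1c (0.96), a cell cycle inhibitor, and Lrrc15 (1.14).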

How the results depend on the processing

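The averaged counts, 2326 higher and 2199 lower, stayed within 1.5 times of these values under every alternative run: 2495 and 2014 with edgeR, 2741 and 2339 with DESeq2, 1647 and 1678 without the 4 libraries high in structured RNAs (a setting chosen after seeing the data), and 1893 to 2835 and 1700 to 2984 without each library in turn. Of the 4525 calls, 3123 were called in all 12 of those fits. The group of similar size is less firm: 780 of the 1173 were still called in all 12 fits, but 277 also kept similar size. Genes of similar size numbered 904 higher and 1229 lower with a ratio of at least 1/2, 246 and 402 with at least 4/5, 156 and 129 when called within each diet, and 248 and 444 without the 4 libraries. On the BCAA-free diet alone 309 calls became 817 with DESeq2, 20 without the 4 libraries and 38 to 1011 without each library. For the difference between diets 118 calls became 809, 1116 and 16 to 1755 in the same order, the 1755 without control diet TAC 3. Replicate numbers did not pair the libraries (correlations of deviations -0.177 to 0.108); with them as a replicate block the averaged counts were 2063 and 1914, with 131 on the BCAA-free diet and 50 for the difference. No named gene changed sign under any of these. Calls lost without the 4 libraries, where replicate 2 alone is left in the BCAA-free TAC group, include those of Myh6, Cfd and Fgf6. The cause of these shifts was not tested beyond the fewer samples fitted. Depth limits genes with few reads, such as Igfbp2 in BCAA-free sham hearts (4.57 to 11.2 normalized reads).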

Other observations

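Cell division genes rose in the average, but of 30 cell cycle genes 25 were called within the control diet and 0 within the BCAA-free diet. In the average 21 of the 30 rose and 0 fell, against 13.3% and 12.6% of all genes. The medians were 1.02 on the control diet and 0.11 on the BCAA-free diet. The sign was the same on both diets for 21 of the 30, and 0 were of similar size. Mki67, a marker of dividing cells, had 1.85 and 0.45, Top2a, a topoisomerase of replicating DNA, 1.53 and 0.46, and Cdk1, the mitotic kinase, 1.54 and 0.04. Without the 4 libraries high in structured RNAs 15 were higher. Of 18 oxidative stress genes 8 rose and 1 fell, against 13.3% and 12.6% of all genes. Ptgs2, a prostaglandin synthase, had 1.92 and 0.95, Nox4, an oxidase, 1.59 and 0.84, and Hmox1, heme oxygenase, 1.29 and 0.58. Maob, a mitochondrial amine oxidase, was the one that fell (-0.63 and -0.29).

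Across all 17493 genes the control diet and BCAA-free responses, which share no libraries, had a Pearson correlation of 0.533, given as a description since genes are not independent. Of the 309 genes called on the BCAA-free diet alone, 5 had the opposite sign on the control diet.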
